A study of Homo sapiens with 60 samples.

Results

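The transcriptome of HT29 cells exposed to 100 µg/mL of an ethanol extract of Menthae Herba was compared with that of cells exposed to 20 µg/mL of the same extract, 6 libraries of the 60 in the series. The members were chosen by label alone, as the 3 libraries labelled medium dose and the 3 labelled low dose. HT29 is an established human colorectal adenocarcinoma line, cultured here without any genetic change named in the labels. Menthae Herba is the dried aerial part of mint used in East Asian medicine, here extracted with 70% ethanol, and every group received its extract or vehicle for 24 h. The series holds 4 herbs and 4 formulas at 3 doses each, and a vehicle of DMSO with 3 libraries. The groups used below besides the medium and low doses are Menthae Herba at 500 µg/mL (high dose, 3 libraries), the vehicle, Saposhnikoviae Radix at 100 and 20 µg/mL (3 and 3 libraries, of which 1 at 20 µg/mL was left out) and the formula Soyo-san at 100 and 20 µg/mL (2 and 2 libraries). The vehicle is labelled 0.1% DMSO with the samples and 2% DMSO in the series text, so its strength is uncertain, and its libraries belong to another numbered set than those of Menthae Herba. The cells are 1 tumour line, and nothing in the labels tells whether the replicates of a dose came from separate cultures. The p-values therefore speak only of the variation among the sequenced libraries, which may be technical.

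Plant extracts carry many small molecules that intestinal epithelial cells sense through a few transcription factors. The aryl hydrocarbon receptor (AHR) binds planar ligands and, with its partner ARNT, switches on cytochrome P450 and aldehyde dehydrogenase genes. NRF2 is held down by KEAP1 until electrophiles modify KEAP1, and then drives genes for quinone reduction, glutathione and thioredoxin metabolism and the aldo-keto reductases. Menthol, the best-known mint compound, acts on TRPM8, a cold-sensing ion channel of sensory neurons.

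Total expected counts were between 21772043 and 27485265 in the low-dose libraries and between 23598803 and 27538331 in the medium-dose libraries, within the range over all 60 (17079221 to 36796414). The share of counts on mitochondrial genes was 9.32% to 9.64% at the low dose and 8.33% to 9.79% at the medium dose, so the ranges overlapped. Low replicate 2 of Saposhnikoviae Radix, as labelled, was unlike the rest, with a best correlation to a library of its own group of 0.845 against at least 0.989 in all others, and was left out of the fit. Epithelial markers were high in the low-dose cells (KRT8 at 6456, KRT18 at 4088, EPCAM at 530 and KRT20 at 242 CPM, where CPM is the count scaled to a library size of 1e+06), while the intestinal factors CDX1 and CDX2 were at 0.827 and 4.18 CPM. Of 10 fibroblast markers, 7 were too low to be tested, and the 3 tested summed to 2.68 to 3.23 CPM in the low-dose libraries. COL1A2 and PDGFRA of that list had 0 counts in all 6 libraries. Of 12 blood cell markers, 8 were too low to be tested, and CD3D had 0 counts in all 6 libraries. LYZ and SERPINA1, from the blood and hepatocyte lists, were at 1445 and 307 CPM at the low dose. Between pairs of libraries, the root mean square log2 difference over 10578 genes of at least 5 CPM was 0.113 to 0.123 for the 6 pairs of the same dose and 0.120 to 0.145 for the 9 pairs of unlike dose.

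Raising the dose from 20 to 100 µg/mL changed 5 genes of 16978 tested (0.0294%), and none by 2-fold. ALDH3A1, AKR1B10 and TRIM16 rose (3 genes, 0.0177%), and LINC00261 and NOX1 fell (2 genes, 0.0118%), at an adjusted p under 0.05. The 3 that rose encode 2 enzymes that dispose of reactive aldehydes and a tripartite-motif protein, and the 2 that fell are a long noncoding RNA and the catalytic subunit of a colonic superoxide-producing oxidase. In bulk RNA, a change in how many cells express a gene and a change in RNA per cell cannot be told apart. The median log2 difference over all genes tested was -0.00087. Of the 10578 genes with a mean of at least 5 CPM, the central 95% lay between -0.17 and 0.14 on the log2 scale, and the 95% interval of the difference stayed inside 2-fold for 10560 of them. At an unadjusted p under 0.05 there were 1039 genes (6.12%), 501 higher (2.95%) and 538 lower (3.17%) at the medium dose. Without a replicate block, ALDH3A1 alone of the 5 genes was called in a fit of the 9 Menthae Herba libraries. With the replicate number as a block, the fit of those 9 libraries called 29 genes, all 5 among them. The count depended on the setting, from 0 genes with the outlying library kept in the fit to 128 without the low-count filter.

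**Figure D1:**
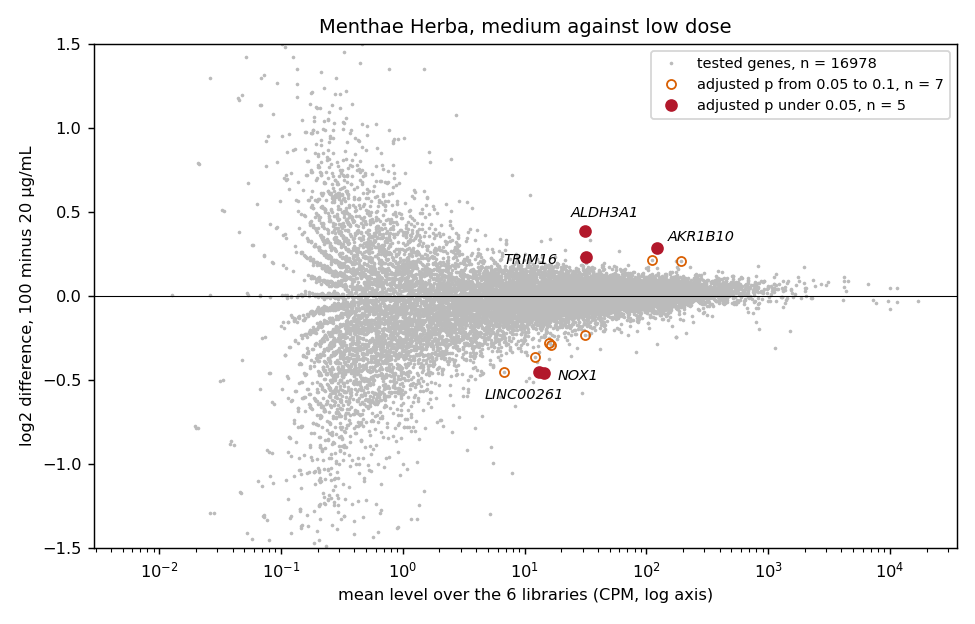
Log2 difference of medium (100 µg/mL) minus low dose (20 µg/mL) against the mean level over the 6 libraries in CPM (log axis), 1 point per tested gene. The 5 called genes (red) and the 7 with an adjusted p from 0.05 to 0.1 (open circles) lie at the edge of a cloud centred on 0; 132 genes beyond 1.5 in size are not drawn.

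For the called genes, the sequence around the start is shown where the RefSeq promoter table (GRCh38.p14) holds it, which was the case for 3 of the 5. They are TRIM16, LINC00261 and NOX1. Each window runs from 250 bases before to 50 bases after the RefSeq start, 5′ to 3′ on the gene's own strand, which is the minus strand for all 3. Capitals mark matches to either of 2 motifs searched on both strands, TGACNNNGC (the core of the antioxidant response element, which NRF2 binds) and GCGTG (the core of the xenobiotic response element, which AHR binds).
TRIM16, chr17:15682902-15683201: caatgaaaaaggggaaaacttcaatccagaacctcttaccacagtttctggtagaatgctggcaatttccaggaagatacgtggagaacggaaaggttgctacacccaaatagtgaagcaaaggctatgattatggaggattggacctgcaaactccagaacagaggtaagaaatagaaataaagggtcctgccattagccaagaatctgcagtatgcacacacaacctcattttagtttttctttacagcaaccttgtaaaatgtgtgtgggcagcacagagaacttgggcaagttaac
LINC00261, chr20:22578593-22578892: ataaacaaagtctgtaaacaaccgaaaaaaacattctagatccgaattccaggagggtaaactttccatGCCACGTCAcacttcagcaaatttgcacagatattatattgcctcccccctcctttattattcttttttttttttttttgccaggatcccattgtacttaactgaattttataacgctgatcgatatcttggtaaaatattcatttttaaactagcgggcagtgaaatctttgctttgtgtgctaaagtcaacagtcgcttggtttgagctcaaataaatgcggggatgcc
NOX1, chrX:100874310-100874609: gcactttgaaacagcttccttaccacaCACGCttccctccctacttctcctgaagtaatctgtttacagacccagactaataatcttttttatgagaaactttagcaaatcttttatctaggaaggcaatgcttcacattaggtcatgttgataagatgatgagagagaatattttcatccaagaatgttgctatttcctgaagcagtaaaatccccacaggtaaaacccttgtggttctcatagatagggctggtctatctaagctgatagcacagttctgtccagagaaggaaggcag
The LINC00261 window held 1 match to TGACNNNGC, read on the opposite strand at bases 70 to 78, and the NOX1 window held 1 match to GCGTG, read on the opposite strand at bases 28 to 32. The TRIM16 window held neither string of letters, which describes only the RefSeq start used. That window, which reaches up to base 15683201, lies wholly inside the GENCODE gene. On the minus strand, the GENCODE gene begins farther upstream, at base 15684311. The sequence around that upstream start is not shown, so nothing is said of its motifs. The LINC00261 and NOX1 windows do span the GENCODE starts of their genes. Over all 35116 promoters of the table, TGACNNNGC occurred in 4687 (13.3%) and GCGTG in 12832 (36.5%), so such matches are common and describe only these letters.

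ALDH3A1 oxidises aromatic and medium-chain aldehydes to acids and is a textbook target of AHR (ENSG00000108602; GENCODE 29 on GRCh38, chr17:19737984-19748943, minus strand). Its level was 27.3, 26.9 and 28.1 CPM in the low-dose libraries and 35.7, 35.3 and 36.5 CPM in the medium-dose libraries. All 3 medium libraries stood above all 3 low ones, and the spread within each dose was small beside the gap between them. The log2 difference was 0.39 ± 0.04 (SE), a 1.31-fold rise, with an adjusted p of 5.51e-07. The vehicle libraries were at 28.9, 29.1 and 30.6 CPM, and the high-dose libraries, none of which enter the contrast, were at 67.6, 67.5 and 69.1 CPM. The low-dose cells thus sat slightly under the vehicle values, the medium-dose cells above them and the high-dose cells far above both.

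AKR1B10, an aldo-keto reductase that reduces aldehydes and retinal and belongs to the NRF2 programme (ENSG00000198074; chr7:134527592-134541408, plus strand), was at 117, 102 and 111 CPM at the low dose and 140, 128 and 136 CPM at the medium dose. The lowest medium library was above the highest low one. The log2 difference was 0.29 ± 0.05 (SE), or 1.22-fold, with an adjusted p of 0.00176. At the high dose the level was 261 ± 15.2 CPM (SD, n = 3), against 111 ± 1.49 CPM (SD, n = 3) in the vehicle. Its close relative AKR1B15 had 0 counts at both doses, and AKR1B1, which lies 68.3 kb away, stayed under 0.5 CPM in all 6 libraries. The call was lost without medium replicate 1 or low replicate 2, with an adjusted p of up to 0.120.

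TRIM16, a tripartite-motif ubiquitin ligase linked to autophagy of damaged membranes (ENSG00000221926; chr17:15627960-15684311, minus strand), was at 30.0, 28.9 and 29.8 CPM at the low dose and 35.2, 33.8 and 35.6 CPM at the medium dose. The doses did not overlap, and the log2 difference was 0.23 ± 0.05 (SE), or 1.18-fold (adjusted p = 0.0228). The vehicle libraries, at 34.9, 33.0 and 33.1 CPM, lay close to the medium dose and not to the low dose, and the high-dose libraries lay at 41.2, 41.9 and 43.0 CPM. TRIM16L, a related gene elsewhere on chromosome 17, had a log2 difference of 0.23 with an adjusted p of 0.400. The division of reads between TRIM16 and TRIM16L was not tested and is uncertain. The call held in 1 of the 6 fits that each leave out 1 medium or low library (the one without medium replicate 2), and over these fits the adjusted p was 0.0404 to 0.313.

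LINC00261 is a long intergenic noncoding RNA (ENSG00000259974; chr20:22547671-22578642, minus strand) next to FOXA2, a gene for a transcription factor of gut and liver endoderm. It was at 13.9, 15.1 and 16.3 CPM at the low dose and 10.8, 10.8 and 11.5 CPM at the medium dose. The medium libraries were all below the low ones and closer together. The log2 difference was -0.45 ± 0.07 (SE), a 1.37-fold fall, with an adjusted p of 0.00176. The vehicle stood at 15.9, 15.8 and 15.2 CPM, within the low-dose range, and the high dose at 3.54, 4.63 and 4.25 CPM. FOXA2, whose annotated gene lies 2.4 kb away, was at 13.1, 13.0 and 12.8 CPM at the low dose and 11.3, 11.9 and 11.4 CPM at the medium dose, without overlap, and its log2 difference of -0.17 did not pass the test (adjusted p = 0.884). The call of LINC00261 was lost without low replicate 3 (adjusted p = 0.0946).

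NOX1, the catalytic subunit of the NADPH oxidase of colon epithelium (ENSG00000007952; chrX:100843324-100874345, minus strand), was at 15.5, 17.4 and 16.8 CPM at the low dose and 11.6, 10.8 and 13.8 CPM at the medium dose. The third medium library came nearest to the low dose but did not reach it. The log2 difference was -0.46 ± 0.08 (SE), a 1.37-fold fall, with an adjusted p of 0.00585. The vehicle was at 15.7, 14.3 and 13.7 CPM, overlapping neither dose wholly: its highest library fell inside the low-dose range and its lowest was just under the highest medium library. The high dose was at 5.54, 5.32 and 4.40 CPM. NOXO1, the organiser subunit of the same enzyme, was at 14.2, 14.5 and 14.9 CPM at the low dose and 13.8, 11.9 and 14.0 CPM at the medium dose (log2 difference -0.14, adjusted p = 0.913), and CYBA, the membrane partner, showed a log2 difference of -0.02. Of the 7 tested genes of epithelial NADPH oxidases, NOX1 alone passed the test, 6 had a negative difference, and the median was -0.139. The call of NOX1 held without low replicate 1 or medium replicate 3 and was lost when any of the other 4 libraries was left out (adjusted p up to 0.169).

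**Figure D2:**
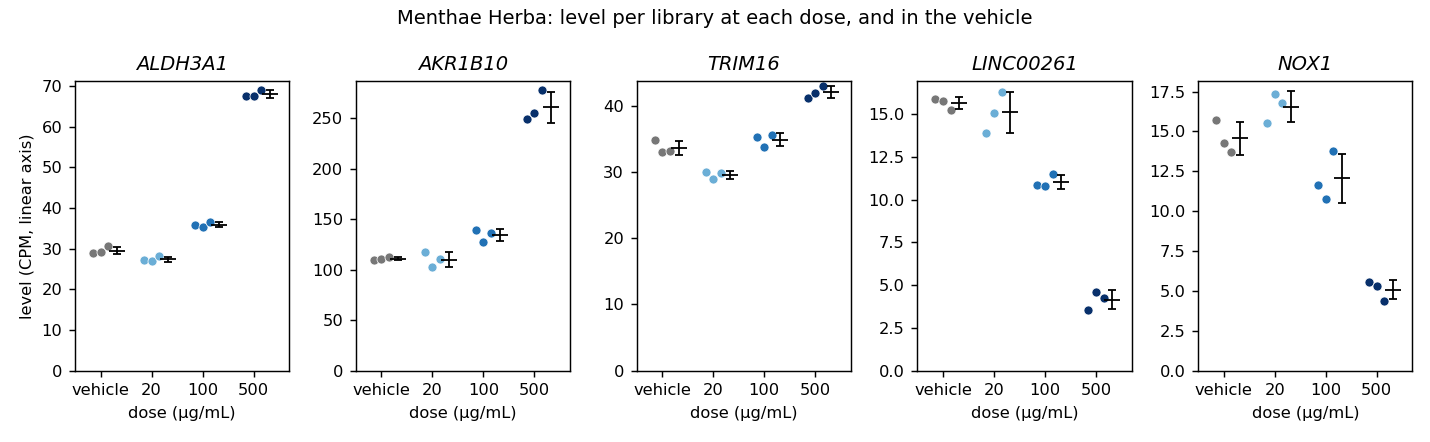
Level in CPM (linear axis from 0) of the 5 called genes in each library of the vehicle and of Menthae Herba at 20, 100 and 500 µg/mL; points are libraries, and the bar beside them is the mean with its SD (n = 3). The medium and low doses do not overlap in any panel, and the high dose lies farther from the low dose than the medium dose does in all 5.

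The rule of an adjusted p under 0.05 left 7 genes just outside, with values from 0.05 to 0.1. They are described after their values were seen. ALDH3A2, the fatty aldehyde dehydrogenase whose gene lies 60.4 kb from ALDH3A1, was at 103, 104 and 102 CPM at the low dose and 119, 118 and 120 CPM at the medium dose (log2 difference 0.21, adjusted p = 0.0612). COTL1, an actin-binding protein, had a log2 difference of 0.21. The 5 on the lower side were SELENBP1, a selenium-binding methanethiol oxidase (-0.28), GABRP, a subunit of the GABA-A receptor (-0.36), PTPRO, a receptor tyrosine phosphatase (-0.29), RARRES1, a retinoid-responsive gene (-0.45), and BTG2, an antiproliferative target of p53 (-0.23). None of the 7 overlapped between the doses. With the replicate number as a block in the fit of 56 libraries, 7 genes were called, 4 higher and 3 lower. They were the same 5 and also ALDH3A2 (adjusted p = 0.0333) and BTG2 (adjusted p = 0.0374). Without a block, DESeq2 called ALDH3A2 (0.00924) and COTL1 (0.0232). The unblocked edgeR fit of the 6 libraries called ALDH3A2 (0.0155), COTL1 (0.0175) and GABRP (0.0448). The remaining genes near the threshold were called in neither. The blocked fit of the 6 libraries called all of the 7 but RARRES1, with SELENBP1 at 0.0421 and PTPRO at 0.0367. The 56 libraries without the low-count filter called RARRES1 (0.0194) but not SELENBP1, PTPRO or BTG2. None of the 7 was called with the outlying library in the fit. Of the other members of the ALDH3 family, ALDH3B1 had a log2 difference of 0.05, and ALDH3B2, under 1 CPM in all 6 libraries, one of -0.26 ± 0.28 (SE), with overlapping doses for both.

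Lists of genes were then described by the count of members past the test and by their median, beside the median of -0.00087 over all genes. Because few genes passed, the count of members whose 3 medium libraries were all above, or all below, their 3 low libraries is given too. Over all 16978 genes, 1508 were all above (8.88%) and 1233 all below (7.26%). The members of a list share the same 6 libraries, so these counts describe the list and were not tested as a set.

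Of the 7 tested AHR targets, 1 rose (ALDH3A1) and none fell, 6 had a positive difference, 3 were all above, and the median was 0.123. CYP1A1, the cytochrome P450 most used as a readout of the receptor, was named for that role outside the rule for named genes. It was at 0.847, 0.591 and 0.617 CPM at the low dose and 1.24, 1.25 and 0.771 CPM at the medium dose. The third medium library fell inside the low range, and the log2 difference of 0.66 ± 0.25 (SE) did not pass the test (adjusted p = 0.652). At the high dose CYP1A1 was at 8.47, 7.74 and 6.38 CPM. CYP1B1, a second P450 of the receptor, was at 49.7, 51.3 and 49.9 CPM at the low dose and 54.9, 54.7 and 54.6 CPM at the medium dose (log2 difference 0.12, adjusted p = 0.667). AHRR, the receptor's repressor, stood on the other side of 0 at -0.24 (adjusted p = 0.743). Transcripts of AHR itself and of ARNT showed log2 differences of -0.06 and -0.01, with overlapping doses.

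Of the 25 NRF2 targets, all were tested, 1 rose (AKR1B10) and none fell. A positive difference was found in 24 of the 25, 16 were all above and none all below, 11 had an unadjusted p under 0.05, and the median was 0.105. Their summed level was 10154 to 10454 CPM in the low-dose libraries and 11115 to 11290 CPM in the medium-dose libraries, without overlap. OSGIN1, an oxidative stress-induced growth inhibitor, was at 15.5, 13.8 and 13.5 CPM at the low dose and 16.2, 18.6 and 19.2 CPM at the medium dose (log2 difference 0.34, adjusted p = 0.178). Thioredoxin reductase TXNRD1 was at 393, 346 and 359 CPM at the low dose and 413, 391 and 414 CPM at the medium dose, with overlap (0.15, adjusted p = 0.259). NQO1, the quinone reductase that AHR and NRF2 both control, was at 499, 494 and 499 CPM against 540, 526 and 555 CPM (0.12, adjusted p = 0.459). Differences for the other redox genes were of this size: the ferritin light chain FTL stood at 0.17 and the haem oxygenase HMOX1 at 0.20, none past the test. Most members thus differed by less than 0.2 on the log2 scale. Without a block, the fit of the 6 libraries called 4 members, among them FTL (adjusted p = 0.0175) and the cystine transporter SLC7A11 (0.0425). OSGIN1 was called in the 56 libraries without the low-count filter (0.00771). With the replicate block, FTL was called in the fit of the 9 Menthae Herba libraries (adjusted p = 0.0432). In the blocked fit of the 6 libraries, FTL (0.0150), TXNRD1 (0.0356), NQO1 (0.0458) and SLC7A11 (0.0126) were called, among others. KEAP1 and NFE2L2, the gene of NRF2, had log2 differences of 0.09 and -0.05.

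**Figure D3:**
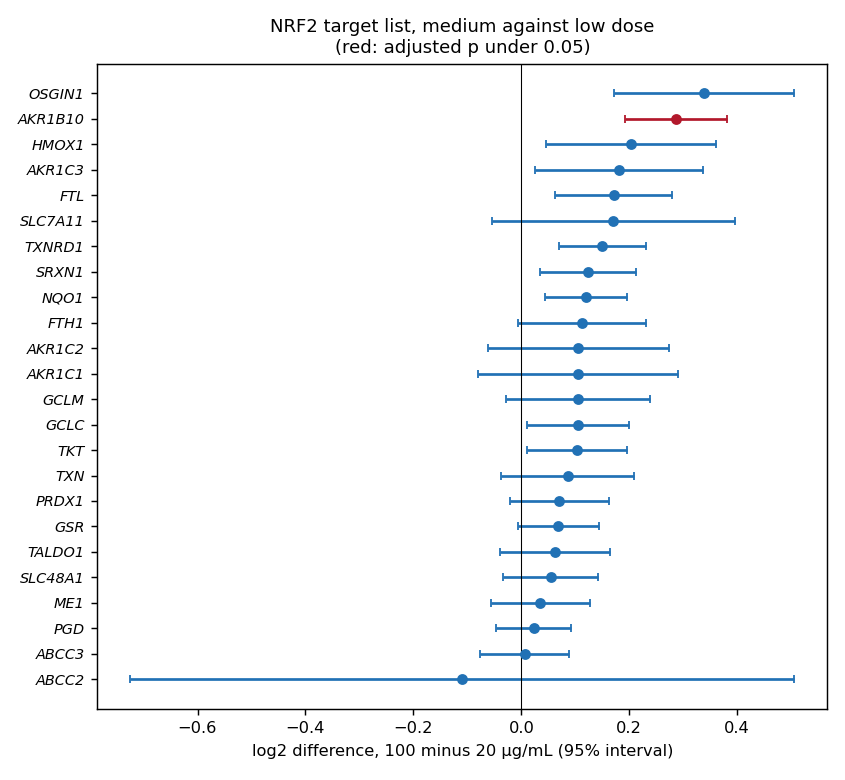
Log2 difference of medium minus low dose with its 95% interval for 24 of the 25 tested genes of the NRF2 target list; the called gene AKR1B10 is in red. Of the 24 points, 23 lie to the right of 0, and most are between 0 and 0.2.

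Among lists of growth and metabolism, no member passed the test in the fit of 56 libraries. Of the 25 ribosome biogenesis genes, 24 had a positive difference, 15 were all above, and the median was 0.084. RRP9, a subunit of the small-subunit processing complex, was at 40.9, 41.4 and 44.3 CPM at the low dose and 46.5, 47.8 and 50.7 CPM at the medium dose (0.19, adjusted p = 0.429). BOP1, which helps process the large-subunit RNA, had a difference of 0.17. Of the 26 hypoxia and glycolysis genes, 13 were all above and 1 all below, with a median of 0.073. The glucose transporter SLC2A1 was at 480, 479 and 481 CPM against 524, 522 and 518 CPM, a gap much wider than the spread within either dose (0.12, adjusted p = 0.250), and the hexokinase HK2 stood at 0.14. The 8 negative members included BNIP3 at -0.26 and CA9 at -0.04. DESeq2 called SLC2A1 and CDC20, a gene of cell division (adjusted p = 0.0452 for each), and the blocked fit of the 6 libraries called SLC2A1 (0.0389), CDC20 (0.0338) and RRP9 (0.0356).

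Lists of the cell cycle had smaller medians. Of the 25 cell division genes, 21 had a positive difference, 11 were all above and the median was 0.066. CDC20, the activator of the anaphase-promoting complex, was at 154, 155 and 152 CPM at the low dose and 169, 171 and 170 CPM at the medium dose (0.14, adjusted p = 0.172), and the mitotic kinase AURKA stood at 0.11. Of the 25 DNA replication genes, 23 were positive, 9 were all above and the median was 0.051, with the ribonucleotide reductase subunit RRM2 at 0.08 and the origin factor MCM10 at 0.12. Chaperones of the heat shock list (18 tested, 8 all above, median 0.057) and of the endoplasmic reticulum (20 tested, 8 all above, median 0.051) and genes of the integrated stress response (24 tested, 9 all above and 1 all below, median 0.064) had medians of like size. In those lists the glutathione-degrading enzyme CHAC1 stood at 0.35 (adjusted p = 0.652) and the cochaperone AHSA1 at 0.11 (adjusted p = 0.789).

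On the lower side, the goblet cell and mucus list (23 tested, none called) had 9 members all below and none all above, with a median of -0.119. BCAS1 was at 65.1, 66.5 and 66.6 CPM at the low dose and 56.3, 56.9 and 57.6 CPM at the medium dose (-0.21, adjusted p = 0.250). ATOH1, the master transcription factor of the secretory lineage, was at 4.35, 4.64 and 4.03 CPM at the low dose and 3.26, 3.48 and 2.88 CPM at the medium dose (-0.43, adjusted p = 0.499). FCGBP, a protein of the mucus gel, was at 18.1, 17.6 and 18.0 CPM against 13.1, 14.4 and 13.9 CPM (-0.37, adjusted p = 0.512), while the lead gel-forming mucin of the colon, MUC2, overlapped between the doses (-0.22, adjusted p = 0.966). The mucin at the highest level, MUC5AC, was at 239 to 246 CPM at the low dose and 211 to 280 CPM at the medium dose, so the doses overlapped. With the replicate block, the fit of the 9 Menthae Herba libraries called FCGBP (adjusted p = 0.0241), BCAS1 (0.0320) and CREB3L1, a transcription factor of secretory cells (0.0432), all lower at the medium dose. The fit of the 6 medium and low libraries called the same 3, with the block (0.0150, 0.0100 and 0.0115) and without it (0.0175 for each). FCGBP alone was called in the unblocked fit of the 9 Menthae Herba libraries (0.0338). It was also the only member called in the 56 libraries without the low-count filter (0.00235). Whether this list holds called members, and how many, thus depends on the libraries fitted, the block and the filter. At the high dose BCAS1, ATOH1 and FCGBP were at means of 36.5, 1.16 and 3.92 CPM.

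The interferon response list (29 tested, none called) had 10 members all below and 1 all above, and a median of -0.122. IFIT3, an antiviral effector, was at 9.94, 7.86 and 8.49 CPM at the low dose and 6.82, 6.74 and 7.34 CPM at the medium dose (-0.34, adjusted p = 0.429), and IFIT1 stood at -0.48 (adjusted p = 0.558). The transcription factor IRF1 stood at 0.00954. WNT targets (16 tested, 7 all below, 1 all above) had a median of -0.043, with the feedback factor SP5 at -0.20 and the stem cell receptor LGR5 at -0.14. Cholesterol synthesis genes (25 tested, 5 all below, 1 all above) had a median of -0.026, with lanosterol synthase LSS at -0.09. Of the p53 targets (21 tested, median 0.033), BTG2 and SESN1 had the smallest p, with differences of -0.23 and -0.17.

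Of the 14 TRP channels, 7 were tested and none was called. TRPM8 was not detected at this depth, with 0 counts in all 6 libraries, and TRPA1, the channel for pungent compounds, had 1 count in total at each dose. TRPV3, a warmth-sensing channel, was at 1.58, 1.05 and 1.27 CPM at the low dose and 0.814, 0.843 and 0.690 CPM at the medium dose (-0.73, adjusted p = 0.512). The colon epithelium markers (12 tested, none called, 4 all above) had a median of 0.028, with CEACAM5 at 0.27 and KRT20 at 0.11.

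**Figure D4:**
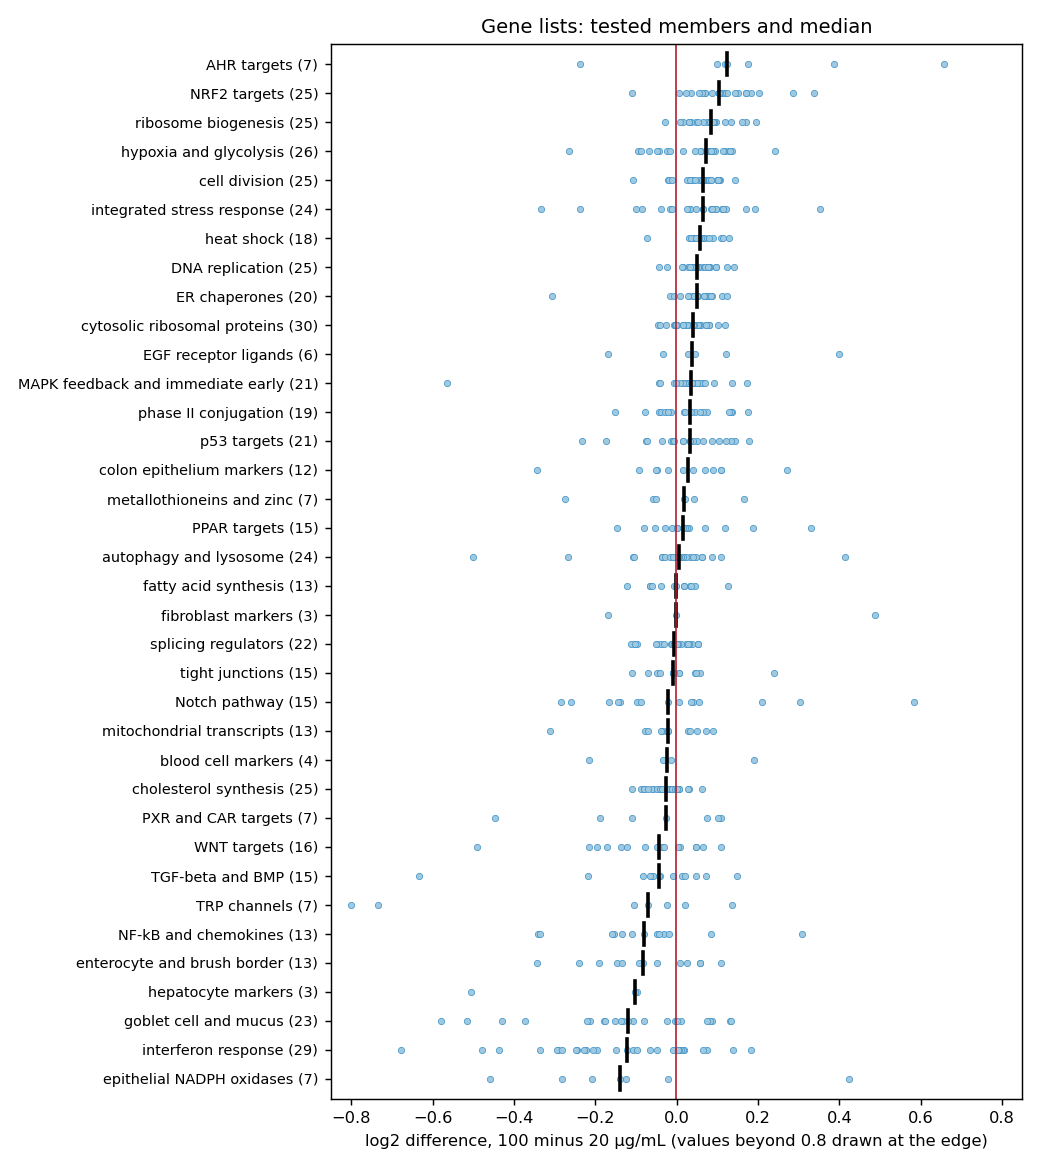
Log2 difference of medium minus low dose for each tested member of 36 gene lists (points; number tested in brackets), with the median of the list (black bar) and of all tested genes (red line). AHR and NRF2 targets have the highest medians (0.123 and 0.105), and the lists of epithelial NADPH oxidases, interferon response and goblet cell and mucus the lowest (-0.139, -0.122 and -0.119); single points range far more widely in lists of low-level genes.

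The same step in dose was set beside that of Saposhnikoviae Radix, another herb of the same library set, and of Soyo-san, a formula of another set. No library is shared between these contrasts. The medium minus low difference of Menthae Herba differed from that of Saposhnikoviae Radix for 0 genes (0%) by edgeR at an adjusted p under 0.05, with 1017 (5.99%) at an unadjusted p under 0.05. From that of Soyo-san it differed for 0 genes (0%), with 423 (2.49%) unadjusted. DESeq2 called 0 for each, with 780 and 225 unadjusted. Within Saposhnikoviae Radix and within Soyo-san themselves, the step from 20 to 100 µg/mL called 0 genes each (0%), but with fewer libraries than for Menthae Herba.

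For ALDH3A1, Saposhnikoviae Radix was at 24.3 and 22.3 CPM at 20 µg/mL and 27.9, 27.6 and 26.5 CPM at 100 µg/mL, a log2 difference of 0.23. Soyo-san was at 25.2 and 25.4 CPM and then 28.6 and 28.7 CPM, a difference of 0.18. The difference in Menthae Herba was larger than these by 0.15 (95% interval 0.02 to 0.29, adjusted p = 0.812) and by 0.21 (0.07 to 0.35, adjusted p = 1.00), so it was not shown to differ after adjustment. NOX1 was at 17.2 and 16.0 CPM and then 16.6, 16.4 and 14.8 CPM in Saposhnikoviae Radix, and at 17.8 and 16.6 CPM and then 18.6 and 15.6 CPM in Soyo-san, with overlap in both. Its difference in Menthae Herba was lower than in these by -0.40 (-0.64 to -0.16, adjusted p = 0.812) and -0.46 (-0.71 to -0.20, adjusted p = 1.00). LINC00261 went from 14.1 and 15.0 CPM to 12.1, 13.0 and 13.2 CPM in Saposhnikoviae Radix and from 14.8 and 15.1 CPM to 11.2 and 11.9 CPM in Soyo-san. Its difference in Menthae Herba minus that in Saposhnikoviae Radix was -0.27 (-0.49 to -0.04, adjusted p = 0.812), and minus that in Soyo-san -0.08 (-0.32 to 0.16, adjusted p = 1.00). For AKR1B10 and TRIM16 the differences from Saposhnikoviae Radix were 0.17 and 0.15 and those from Soyo-san were 0.19 and 0.27, and again none passed the adjusted test.

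**Figure D5:**
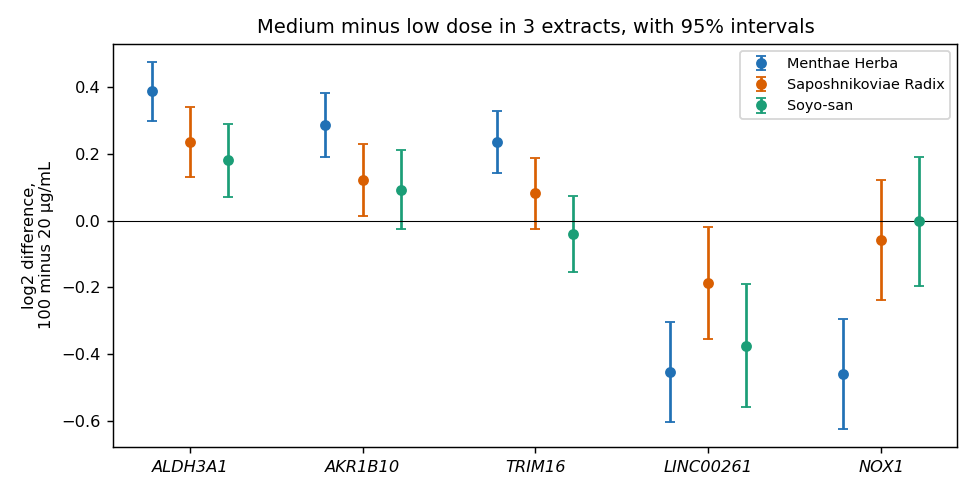
Medium minus low dose on the log2 scale, with 95% intervals, for the 5 genes called in Menthae Herba, in that herb (blue), in Saposhnikoviae Radix (orange) and in Soyo-san (green). The 5 genes were chosen for their difference in Menthae Herba; for NOX1 the other 2 extracts lie near 0 (-0.06 and -0.0026), and for ALDH3A1 all 3 lie above it.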

How the data were processed

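RNA of 60 HT29 libraries was sequenced as 100 bp paired-end reads from directional MGIEasy libraries, per the labels' protocols. The deposited values are expected counts per gene, which the authors made with FastQC 0.11.9, Trim Galore 0.6.5, STAR 2.7.3a and RSEM 1.3.3, as the submitters' processing notes list them. No source used here names the annotation release or the strand setting, so reads of a gene and its antisense partner cannot be told apart. Of the values, 10.0% were not whole, and all were rounded.

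Genes were tested with edgeR 4.0.16 (R 4.3.3): TMM, filterByExpr, and a quasi-likelihood fit of 56 libraries in 22 groups (34 residual degrees of freedom), with two-sided tests and Benjamini-Hochberg adjustment over 16978 genes. Okbyeongpung-san, with 1 library a dose, and the outlying library were left out. CPM is the count scaled to a TMM-adjusted library size of 1e+06. The scripts were checked on simulated data. DESeq2 1.42.0 was an alternative.

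The rule for named genes took, from called genes that have a symbol, average 5 CPM or more and do not overlap between doses, the 12 largest rises and falls and the 6 smallest p in each direction, then up to 4 called members per list or, with none called, the 2 smallest p. Other list members, the neighbours and relatives of called genes and the 7 genes just outside the threshold were chosen after their values were seen. The members and the 36 lists were chosen with earlier results of these data known. Of 669 list symbols, 667 were in the table. Values of some list members are not reported here, and 1 is left out of the plot of NRF2 targets.

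Replicate numbers come from the sample titles. Over 10578 genes, deviations from the dose mean correlated between same-numbered medium and low libraries at 0.189, 0.120 and 0.157, so the numbers were taken to pair the libraries. The main fit, with its 5 calls, nevertheless has no replicate block. With the block, 7 genes were called from the 56 libraries, 29 from the 9 Menthae Herba libraries and 104 from the 6 libraries. Blocked values are given for some genes of the text whose call they change. Coordinates are from GENCODE 29 on GRCh38.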

Additional observations from a re-analysis of the deposited data

How the results depend on the processing

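All 5 called genes kept their direction in all 15 alternatives. Their medium and low libraries do not overlap, and every alternative refits those same libraries. A reversal was therefore hardly possible, and the kept direction is no separate support. The count of 5 was 5 with RLE size factors, 9 with DESeq2, 7 with the replicate block, 36 from the 6 medium and low libraries alone, 4 from the 9 Menthae Herba libraries, 29 from those 9 with the replicate block, 128 without the low-count filter (39 higher, 89 lower) and 0 with the outlying library in the fit, where edgeR gave 288 genes at an unadjusted p under 0.05. The replicate block in the fit of the 6 libraries, added after the data were seen, gave 104. Leaving out 1 library at a time gave 2 to 4 calls, with 2 each without medium replicate 1, low replicate 2 and low replicate 3. ALDH3A1 was called in 14 of 15 alternatives, LINC00261 in 12, AKR1B10 in 11, NOX1 in 9 and TRIM16 in 7. The 36 calls of the 6 libraries and the 128 without the filter held 5 and 4 of the 5 genes. The differences between extracts gave 0 calls with RLE, DESeq2, the replicate block and the outlying library in the fit. Without the filter they gave 132 (Saposhnikoviae Radix) and 77 (Soyo-san). Leaving out 1 library gave 0 to 3 (3 without Saposhnikoviae Radix low replicate 3) and 0 to 0. The cause of these changes was not tested. The medians of the AHR, NRF2, ribosome biogenesis, goblet cell and interferon lists kept their sign in all 15 alternatives. These refit the same libraries, so the kept sign is no separate support for the lists either. Some lists with medians near 0 changed sign, that of fatty acid synthesis in 11 alternatives. Depth limits low genes such as CYP1A1, at about 1 CPM.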
